A study of Arabidopsis thaliana with 6 samples.

Results

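NAC014 (locus AT1G33060, chromosome 1) was the single gene of the NAC transcription factor family found under the platform annotation used here. Members were the genes whose annotated symbol is NAC or ANAC followed by a number, on probe sets that the platform annotation gives to exactly 1 gene. Of 13356 genes with a probe set of their own, 1 met this rule. That annotation left 8730 of the 22746 probe sets tested unnamed, and probe sets of other NAC genes may be among them. RefSeq lists 81 Arabidopsis genes with such a symbol, and the other 80 were not analysed here, so no statement about the family as a whole can be drawn from these values. None of 52 further symbols for NAC-domain genes, such as ATAF1, NAP and RD26, led to a second NAC gene. The symbol LOV1 was present, but there it names the locus AT1G10920, which is not annotated as a NAC gene.

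The 6 Affymetrix arrays measured total RNA of mature rosette leaves of Arabidopsis thaliana grown without any stated treatment. WT leaves and leaves of the mlo2 mlo6 mlo12 triple mutant were taken 5, 6 and 7 weeks after sowing, with 1 array for each genotype and age and therefore 3 arrays per genotype. The accession of the WT, the alleles of the 3 mutations and the number of plants per array are not given in the sources used here. No label says that the arrays came from separate sets of plants, so the p-values measure only the spread among these arrays, which may be technical.

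NAC proteins are a plant-specific family of transcription factors that bind DNA through a conserved N-terminal domain, named after NAM, ATAF and CUC, and regulate transcription through a variable C-terminal part. Members of the family are known for setting the onset of leaf senescence, for responses to drought, abscisic acid and organelle stress, and for the formation of secondary cell walls. NAC014 is counted among the membrane-tethered NAC factors, which carry a predicted transmembrane segment near the C terminus and reach the nucleus after release from a membrane, a step that a transcript level does not show. MLO2, MLO6 and MLO12 encode membrane proteins, and plants without them resist powdery mildew fungi and are known to show early leaf yellowing.

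Array medians of the log2 values were 3.87 on both 5-week arrays and 3.80 to 3.82 on the later ones. The WT array of 6 weeks had the lowest mean correlation with the other arrays, 0.970 against 0.975 to 0.982. The genotype labels could not be checked through the targeted genes, because 0 probe sets were listed for MLO2, MLO6 or MLO12 alone. Of 34 mature leaf markers 7 were measured, among them RCA, SBPASE and PRK, with a summed level of 14.4 to 14.7 (log2) in WT and 14.3 to 14.7 in the mutant. The 3 measured of 6 guard cell markers summed to 4.63 to 4.85 in WT and 4.62 to 4.80 in the mutant, and the 2 measured of 6 markers of dividing cells to 3.76 to 3.85 and 3.71 to 3.84. The 1 measured seed marker, OLEO3, read 2.88 to 3.51 in WT and 2.88 to 3.03 in the mutant. OLEO3, the guard cell markers SPCH and MUTE, and AUR1 and AUR2 of dividing cells read below the array median on every array. RMA values are compressed there, so these readings and sums say little about cell composition. Listed markers of vascular tissue, flowers and roots had 0 measured genes, so those tissues were not checked.

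NAC014 was read at a moderate level that was highest in WT leaves taken at 5 weeks. In WT its log2 level was 5.49 at the first harvest, 5.14 at the second and 5.12 at the third. In the mutant the same harvests gave 5.15, 4.97 and 4.97. The 5-week WT array thus stood above the 5 others, which lay within a narrow band, and the mutant array was the lower of each same-age pair. The ranges of the genotypes overlapped slightly, since the 5-week mutant array lay above the 6-week WT array. Within each array, 63.2% to 68.5% of the 22746 probe sets tested read lower than NAC014. From the highest to the lowest array the difference was 0.52 (log2), and 54.8% of probe sets spanned a wider range. Its residual SD around the fitted genotype and age effects was 0.073 (log2, 2 residual degrees of freedom), below the median of 0.16 over all probe sets. Fewer cells with the transcript and less transcript per cell cannot be told apart in whole-leaf RNA.

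**Figure D1:**
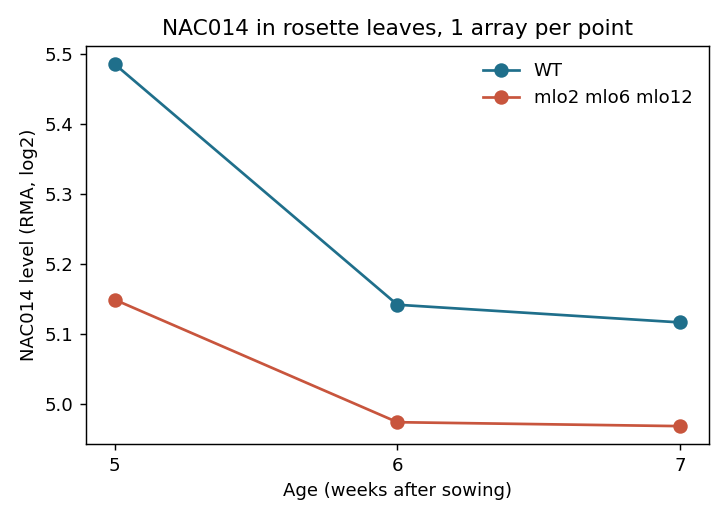
NAC014 level (RMA, log2) on the vertical axis against age in weeks after sowing, with WT and the mlo2 mlo6 mlo12 mutant as separate lines and 1 array per point. WT goes from 5.49 to 5.12 and the mutant from 5.15 to 4.97, with most of each difference already present at 6 weeks.

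In descending order the arrays were WT at 5 weeks, mutant at 5 weeks, WT at 6 weeks, WT at 7 weeks, mutant at 6 weeks and mutant at 7 weeks. The gap between the first and the second was 0.34 (log2). Further down, the gaps between neighbours were 0.0073, 0.025, 0.14 and 0.0056. With the SD moderated over all probe sets, 0.13, a difference between 2 single arrays has an error of 0.19. The top gap exceeded that error and the others did not. With limma-trend the error was 0.36, above the top gap, and with dim probe sets left out it was 0.34, about the size of that gap. The order of the 6 arrays is therefore not resolved by these data.

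The age comparison asked whether the transcript differed between the harvests, averaged over the genotypes. NAC014 averaged 5.32 at 5 weeks, 5.06 at 6 weeks and 5.04 at 7 weeks (log2, n = 2 arrays each). At 7 weeks it was -0.28 ± 0.13 (SE, log2) relative to 5 weeks, which is 1.21-fold lower, and at 6 weeks -0.26 ± 0.13, which is 1.197-fold lower. Between 6 and 7 weeks the mean difference was -0.015. Neither contrast with 5 weeks passed the test in limma (adjusted p = 0.424 for 7 weeks and 0.390 for 6 weeks, over all 22746 probe sets). The 95% confidence interval for 7 minus 5 weeks ran from -0.63 to 0.08, so it reached from a 1.54-fold lower to a 1.05-fold higher level. In an exact permutation of the ages within each genotype (36 arrangements, two-sided), the 7 minus 5 week difference had p = 0.0556, the smallest value these arrays can give.

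The age difference had the same sign in both genotypes. From 5 to 7 weeks NAC014 differed by -0.37 in WT and by -0.18 in the mutant, and from 5 to 6 weeks by -0.34 and -0.18. Such a course is common on these arrays. Of all probe sets, 20.1% were lower at both later ages than at 5 weeks in both genotypes, and 34.8% had a larger absolute 7 minus 5 week estimate than NAC014. For 7 minus 5 weeks, limma called 0 of 22746 probe sets at an adjusted p of 0.05 (0%) and 3691 (16.2%) at an unadjusted one. The adjusted count was 258 with limma-trend, 249 with dim probe sets left out and 1755 without either 6-week array. With 1 array left out the unadjusted count ran from 1585, without the 7-week mutant array, to 5634, without either 6-week array. Past a log2 difference of 1, in either direction, were 5.04% of probe sets in WT and 6.21% in the mutant, and NAC014 was not one of them. For 6 minus 5 weeks the counts were 0 (0%) and 4206 (18.5%), the latter 2020 without the 5-week WT array. Without the 6-week mutant array they were 3516 and 7236. NAC014, with unadjusted p-values of 0.0982 and 0.113 in limma, was past neither threshold, nor past the adjusted one in any of these alternatives. The 6 minus 5 week estimate was -0.13 after a second quantile normalization and -0.17 without the 5-week WT array.

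Other readings moved with age beside NAC014. The mean of the probe sets designed for poly-A spike-in controls went up along the WT arrays from 4.03 to 5.16 and 5.20 (log2). Along the mutant arrays it went from 4.21 to 4.46 and 4.84. Whether such controls were added to these samples was not checked. Values of the control for 25S rRNA were 7.51, 4.08 and 3.87 in WT, against 6.59, 5.39 and 5.70 for the mutant. All 7 measured leaf markers had 7 minus 5 week estimates below 0, with a median of -0.45, though 0 of them passed the test, as for all other probe sets. The part of the controls and leaf markers in the NAC014 difference was not tested. Array medians were also higher on both 5-week arrays than on any later one. With arrays shifted to the same median, the 7 minus 5 week estimate of NAC014 was -0.21 instead of -0.28. After a second quantile normalization it was -0.22. The day and hour of each harvest are not given, so plant age and a harvest effect common to both genotypes cannot be told apart.

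The genotype comparison asked whether loss of the 3 MLO genes altered the transcript. NAC014 averaged 5.25 ± 0.21 (SD, log2, n = 3) in WT and 5.03 ± 0.10 (SD, n = 3) in the mutant. Paired by age at 5, 6 and 7 weeks, mutant minus WT was -0.34, -0.17 and -0.15, each from 1 array per side. The mean difference was -0.22 ± 0.11 (SE, log2), which is 1.16-fold lower in the mutant, in the same direction in 3 of 3 pairs. It did not pass the test in limma (adjusted p = 0.784, unadjusted p = 0.106). The 95% confidence interval ran from -0.50 to 0.07, that is, from a 1.42-fold lower to a 1.05-fold higher level in the mutant. An exact sign permutation over the 3 pairs (two-sided) gave p = 0.25, the smallest value that 3 pairs allow.

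**Figure D2:**
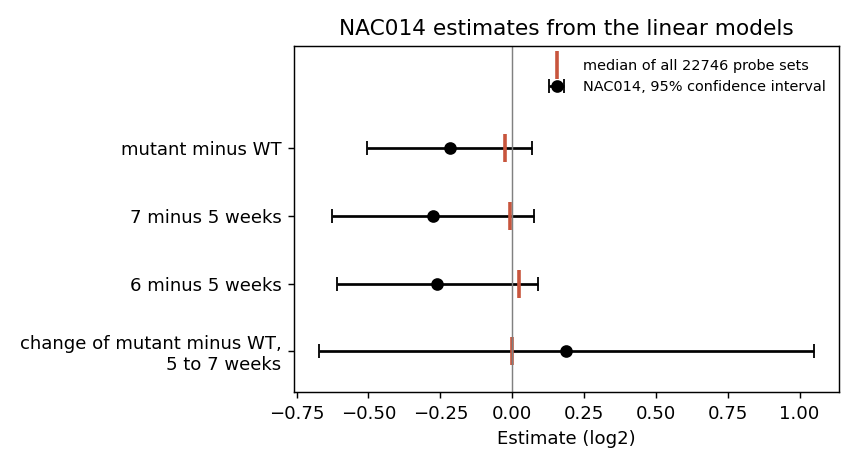
Estimates for NAC014 (log2, horizontal axis) in the 4 comparisons, as black points with 95% confidence intervals, beside the median estimate of all 22746 probe sets as red ticks. All 4 intervals include 0, and that of the genotype-by-age change, from -0.67 to 1.05, is the widest.

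A lower reading in the mutant at every age was also seen for 16.7% of all probe sets, and 26.8% had a larger absolute genotype estimate than NAC014. For genotype, limma called 0 of 22746 probe sets at an adjusted p of 0.05 (0%) and 1482 (6.52%) at an unadjusted one, and limma-trend called 1 after adjustment. The unadjusted count was 684 without either 7-week array and 2304 without either 6-week array. The 2-fold level (an absolute log2 difference of at least 1) was reached by 1.31% of probe sets at 5 weeks, 4.93% at 6 weeks and 1.85% at 7 weeks, and NAC014 stayed below it at each age. Lower in the mutant at all 3 ages and also lower than at 5 weeks in both genotypes at both later ages were 600 probe sets (2.64%), NAC014 among them.

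**Figure D3:**
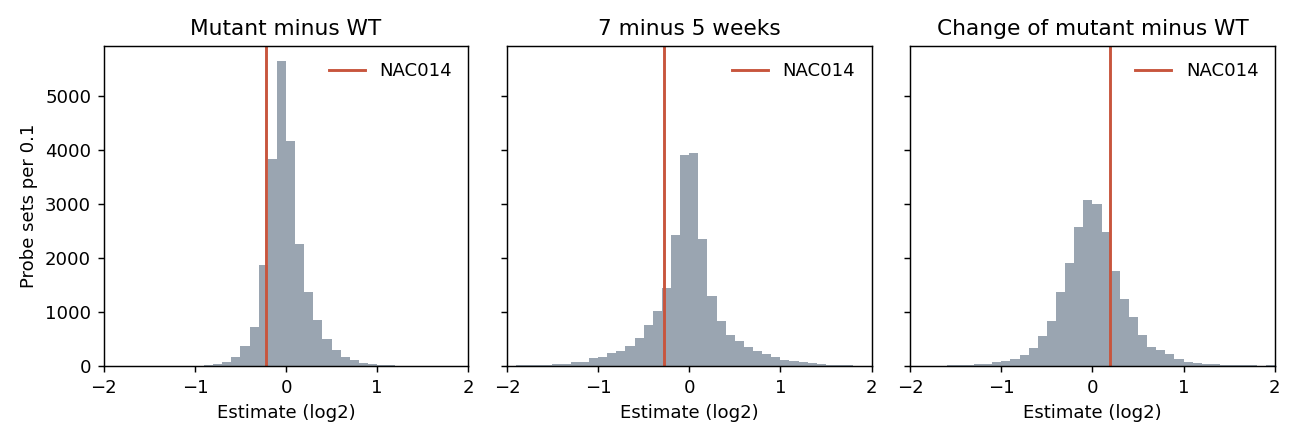
Number of probe sets (vertical axis, bins of 0.1) by estimate (log2, horizontal axis, drawn from -2 to 2; the few beyond are not shown) for mutant minus WT, 7 minus 5 weeks and the change of mutant minus WT from 5 to 7 weeks. The red line marks NAC014, at -0.22, -0.28 and 0.19, on the lower flank of the peak in the first and second panels and within the peak in the third.

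The interaction asked whether the difference between the genotypes changed with age. For NAC014 the difference was -0.34 at 5 weeks and -0.15 at 7 weeks. This gives 0.19 ± 0.32 (SE, log2, adjusted p = 1 in limma) as its change over those weeks. The interval from -0.67 to 1.05 allows changes of either sign, up to 2.07-fold. Without the 5-week WT array the estimate turned to -0.13. Of the 22746 probe sets, 0 were called for this change (0%), while 233 (1.02%) reached an unadjusted p under 0.05. With 1 array left out the latter count ran from 53, without the 5-week mutant array, to 3907, without the 7-week WT array.

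Genes of the processes in which NAC factors act in leaves were then set beside NAC014. None of the 17 measured genes of these 4 lists passed the test in any of the 4 comparisons. The same held for all 22746 probe sets (0% called), so this says nothing particular about the lists. The list of senescence and chlorophyll loss had 7 of its 41 genes measured. Their genotype estimates were above 0 for 4 and below 0 for 3, with a median of 0.09, and their 7 minus 5 week estimates likewise, with a median of 0.11. Both medians are the estimates of WRKY22, which read below the array median on every array, as did SAG29. RMA values are compressed there, so these medians say little about the list. The medians over all probe sets were -0.025 for genotype and -0.0068 for age.

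Within this list, NOL and EIN3 shared the signs of NAC014 in the genotype and 7 minus 5 week estimates. Unlike NAC014, NOL read higher in the mutant at 5 weeks and EIN3 at 6 weeks. NOL, which acts in the first steps of chlorophyll b breakdown, read 6.16, 5.99 and 6.09 along the WT ages and 6.20, 5.75 and 5.65 along those of the mutant. Its estimates were -0.31 ± 0.17 (SE, log2) for 7 minus 5 weeks and -0.21 ± 0.14 for genotype. EIN3, the ethylene-signalling transcription factor that acts upstream of NAC genes in leaf ageing, read 8.26, 6.94 and 7.81 in WT, against 7.40, 7.23 and 7.34 for mutant leaves. As for NAC014, its 5-week WT array was the highest of the 6. Its estimates were -0.26 ± 0.30 for 7 minus 5 weeks and -0.35 ± 0.24 for genotype. WRKY22, a transcription factor of dark-induced senescence, read between 2.69 and 3.08 in all arrays. SAG29, a sugar transporter gene of senescing leaves, read between 3.01 and 3.71, and SAG101 between 3.44 and 4.71.

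WRKY53, an early regulator of leaf senescence, read 5.46, 7.17 and 7.76 in the mutant and 6.04, 6.08 and 5.91 in WT, so both later mutant arrays lay above all WT arrays. WRKY6, another senescence-linked factor, read 4.22, 5.28 and 5.77 in the mutant and 4.59, 4.38 and 5.13 in WT. Their changes of the genotype difference from 5 to 7 weeks, 2.42 ± 0.53 and 1.01 ± 0.53 (SE, log2), did not pass the test in limma (adjusted p = 1 for both). For NAC014, both genotypes read lower at the later ages than at 5 weeks.

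In the list of mitochondrial and endoplasmic reticulum stress genes, the processes in which other membrane-tethered NAC factors are known to act, 5 of 30 genes were measured. All 5 had age estimates above 0, with a median of 0.33, and 4 of 5 had genotype estimates above 0, with a median of 0.13. BZIP60, a membrane-tethered transcription factor of the unfolded protein response, read 7.76, 8.63 and 8.63 in WT, against 7.86, 9.05 and 8.80 for mutant leaves. Its 7 minus 5 week estimate was 0.91 ± 0.15 (SE, log2; adjusted p = 0.0959 in limma), opposite in sign to that of NAC014. BZIP28, another membrane-tethered factor of that response, ranged from 5.51 in WT at 6 weeks to 6.58 in the mutant at 6 weeks, with no common course in the genotypes.

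NDB2, an alternative NAD(P)H dehydrogenase of mitochondria, read 6.34, 6.65 and 6.85 in WT, against 7.21, 8.13 and 7.35 for mutant leaves. Every mutant array lay above every WT array, by a mean of 0.95 ± 0.21 (SE, log2), but the difference did not pass the test in limma (adjusted p = 0.690). The share of all probe sets that separate the genotypes in this way was not computed. NDB3 had a genotype estimate of 0.11 ± 0.15 and NDB4 of -0.15 ± 0.15. The drought and abscisic acid list had 4 of 38 genes measured, COR15A, COR15B, COR47 and LTI30, with median estimates of 1.08 for age and -0.62 for genotype. Their 7 minus 5 week estimates were of opposite sign to that of NAC014 in 4 of 4 genes, while for 6 minus 5 weeks COR47, at -0.18, and LTI30, at -0.09, had its sign. Their genotype estimates had the sign of NAC014 in 4 of 4, and 56.3% of all probe sets had that sign. At 6 weeks, however, mutant minus WT was 0.27 for COR47 and 0.92 for LTI30. For COR15A and COR15B the mutant was lower at every age. Of 26 secondary wall genes, 1 was measured. It was IRX15, a xylan synthesis gene, which read 2.58 to 2.88 in all arrays.

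**Figure D4:**
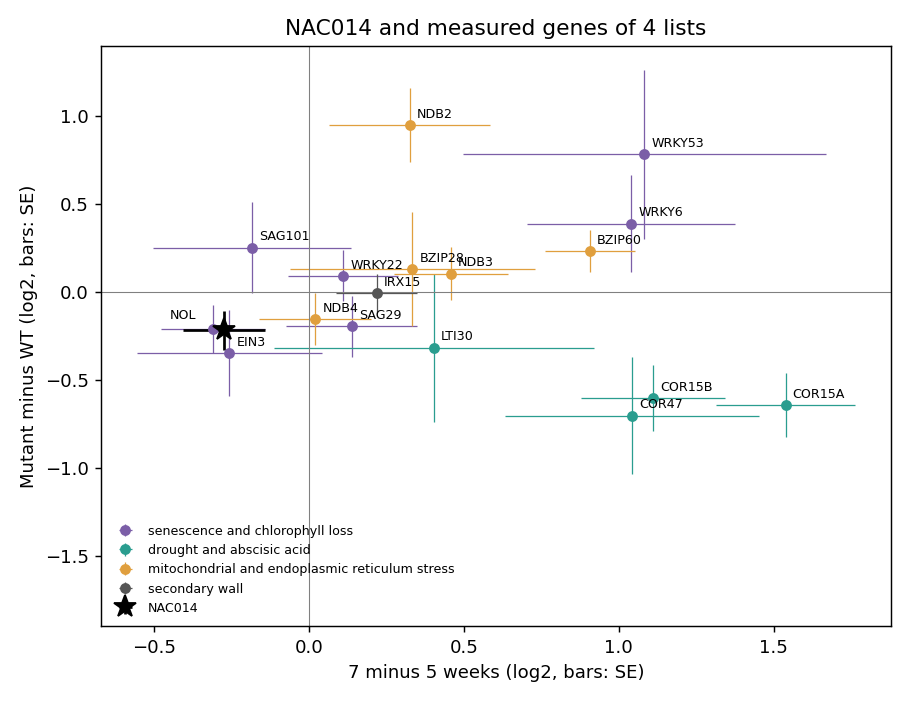
Mutant minus WT estimate (log2, vertical axis) against the 7 minus 5 week estimate (log2, horizontal axis) for NAC014, as a star, and the 17 measured genes of 4 lists, coloured by list, with SE bars. NAC014 lies at -0.28 and -0.22, close to NOL and EIN3, while BZIP60, at 0.91 and 0.23, and COR15A, at 1.54 and -0.64, lie to the right.

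The genes next to NAC014 on the chromosome read low on every array. AT1G33055 on one side read 2.79, 3.23 and 3.002 in WT, against 2.96, 2.90 and 2.81 for mutant leaves. AT1G33070 on the other side read 2.18, 2.34 and 2.26 in WT, against 2.22, 2.39 and 2.40 for mutant leaves. Both sat well below the array medians, where RMA values are compressed, so small differences there carry little information.

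The course of NAC014 over the 6 arrays was compared with 6021 other genes whose mean level was at or above the median of all probe sets, a measure chosen after the values had been seen. The 5 most similar by Pearson's r were UBP15, AT1G52360, AT3G07940, AT3G11450 and AT3G08960, with r from 0.978 to 0.994. UBP15, a ubiquitin-specific protease, read 5.05, 4.40 and 4.40 in WT, against 4.41, 4.16 and 4.18 for mutant leaves, with the 5-week WT array on top as in NAC014. AT3G11450 read 5.21, 4.48 and 4.41 in WT, against 4.55, 3.90 and 4.02 for mutant leaves. In all, 20 genes (0.332%) reached an r of at least 0.95. With 6 arrays that share genotype and age, these coefficients are a description of these arrays only.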

How the data were processed

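The analysis started from the log2 values that the authors deposited, 1 per probe set and array. Per the submitters' processing notes, the authors made them with RMA, which corrects background, normalizes by quantiles and gives 1 value per probe set; its version and the annotation are not given in the sources used here. RMA makes array distributions alike, so a change in total mRNA cannot be seen. Scanner intensities were not used here. With so few arrays, their number sets the precision.

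The 64 control probe sets were set aside and 22746 were fitted. The platform annotation gave 13513 of them to 1 gene and 503 to several; 8730 were unnamed here. The probe set of highest mean stood for a gene (NAC014 had 1). Locus names came from RefSeq (TAIR10.1).

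Models were fitted with limma 3.58.1 in R 4.3.3: genotype plus age as a factor of 3 levels, and genotype by age as a number for the interaction, each with 2 residual degrees of freedom, eBayes and Benjamini-Hochberg adjustment over all 22746 probe sets. The models were tested on simulated data. The members, lists (senescence, drought, organelle stress, secondary wall, NAC genes under other symbols, cell type markers), tests and alternatives (normalization, variance model, filter, age term, arrays left out) were chosen with earlier results of these data known. Genes named were every member, each measured list gene or its list's counts, the chromosomal neighbours and the 5 genes of most similar course; the last 2 choices were made after the values had been seen.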

Additional observations from a re-analysis of the deposited data

Results flagged for a closer look

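Of 33 genes examined one by one (NAC014, list and marker genes, and chromosomal neighbours), 3 ran in opposite directions in the genotypes, with both later arrays of WT on one side of the 5-week array and both later arrays of the mutant on the other. In SAG101, which acts with EDS1 in immunity, WT read 4.16, 4.06 and 3.44 and the mutant 3.68, 4.71 and 4.03 at 5, 6 and 7 weeks, so that mutant minus WT changed by 1.07 (log2) from 5 to 7 weeks. In NDB4, a mitochondrial NAD(P)H dehydrogenase, it changed by -0.55. In AT1G33055, a neighbour of NAC014, it changed by -0.36. NDB4 and AT1G33055 read below the array median on every array, where RMA values are compressed, so their changes carry little information. SAG101 also read below it in WT at 7 weeks and in the mutant at 5 weeks, and both readings enter its change. The interaction in limma did not call any of the 3 genes (adjusted p = 1 for each), and each age has 1 array per genotype. NAC014 was not among the 3. The share of all probe sets that meets this rule was not computed, so the count only describes these arrays.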

How the results depend on the processing

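The NAC014 estimate kept its sign under all 15 alternatives for genotype (-0.29 to -0.16), all 14 for 7 minus 5 weeks (-0.36 to -0.19) and all 12 for 6 minus 5 weeks (-0.35 to -0.13), and passed the adjusted threshold under none; the adjusted p ranged from 0.615 to 0.999, 0.300 to 0.961 and 0.326 to 0.943 in limma or, without variance moderation, ordinary least squares. Many of these alternatives could not move the estimate. The variance model, the filter, the age term and the choice of probe set left the genotype estimate at -0.22 by construction. Leaving out either array of an age gave the same genotype estimate. NAC014 was lower in the mutant at every age, so leaving out an age could not reverse the genotype sign either. The kept genotype sign is therefore informative only for the normalizations. For genotype, the unadjusted p was lowest, 0.0468, after a second quantile normalization. For the interaction, leaving out 1 array gave -0.13 (without the 5-week WT array, the only reversal) to 0.51, and the adjusted p ranged from 0.594 to 1; without both 6-week arrays it could not be tested. The SE of NAC014 was 0.21 for genotype and 0.25 for 7 minus 5 weeks with limma-trend, against 0.11 and 0.13. NAC014 has 1 probe set, so the choice of probe set changed nothing.

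The number of probe sets past the threshold went from 0 to 1 for genotype with limma-trend. For 7 minus 5 weeks it went to 258 with limma-trend, 249 with dim probe sets left out and 1755 without both 6-week arrays, and leaving out 1 array gave 0 to 1755, the highest without either 6-week array. For 6 minus 5 weeks it went to 66 with limma-trend and 2 with dim probe sets left out, and leaving out 1 array gave 0 to 3516, the highest without the 6-week mutant array. NAC014 was in none of these sets. The cause was not tested. No paired analysis by replicate number was possible because the labels give none; age pairs the genotypes in the model, and with no age term the genotype estimate was -0.22 ± 0.14 (SE).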
